A study of Mus musculus with 4 samples.

Results

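The Trav genes, the V segments of the T cell receptor alpha chain, were described in RNA sequencing libraries of mouse double-negative regulatory T cells (DNT). DNT bear an αβ receptor without CD4 or CD8 and can suppress immune responses. The members were all genes of the deposited table whose GENCODE vM21 symbol starts with Trav and whose gene type is a T cell receptor V gene or V pseudogene. There were 103 of them among 35275 genes, 98 V genes and 5 pseudogenes, all on chromosome 14. The same annotation names 128 such genes, and the rest were not analysed here. The 4 libraries were 2 of wild-type C57BL/6 mice and 2 labelled OX40-knockout, of the same strain. OX40, encoded by Tnfrsf4, is a costimulatory receptor that activated T cells display. Per the labels' protocols, naive CD4 T cells of either genotype were converted into DNT, and a sort kept cells with CD3 and TCRαβ but without CD4, CD8 or NK markers. The sources used here give neither the animals' age nor the kind of OX40 allele. Nothing in the labels states that libraries of 1 group were separate animals or cultures. Every p-value thus measures the spread among these libraries alone, and that spread may be technical.

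An alpha chain gene is made in the thymus by joining 1 V segment to 1 J segment, and the joined exon is then spliced to the constant segment Trac. A T cell therefore transcribes mainly the V segment that it has joined, and the levels of the V segments in a bulk sample reflect how the cells of that sample share out the repertoire. In C57BL/6 mice a large stretch of the V array is present in repeated copies, named with the suffix d (duplication) and n. The delta chain locus lies inside the alpha locus, and some V segments can join to either chain and carry a delta name as well, such as Trav15-1-dv6-1. Fixed alpha chains mark some innate-like T cells. In the mouse, Trav11 joined to Traj18 marks invariant NKT cells, and Trav1 joined to Traj33 marks mucosal-associated invariant T (MAIT) cells.

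The 3′ ends of 6 segments follow, because these had the highest mean levels. Each is the last 60 bases of the longest GENCODE vM21 transcript (GRCm38), on the coding strand, 5′ to 3′. Capitals mark the codon of the conserved cysteine at which the CDR3, the loop that meets the peptide, begins.
Trav3-3: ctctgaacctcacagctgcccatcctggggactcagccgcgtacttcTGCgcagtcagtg
Trav13-1: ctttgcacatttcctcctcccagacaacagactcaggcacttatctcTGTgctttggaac
Trav16n: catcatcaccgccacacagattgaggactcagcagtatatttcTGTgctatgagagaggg
Trav12-2: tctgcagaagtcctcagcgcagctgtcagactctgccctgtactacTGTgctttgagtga
Trav13-4-dv7: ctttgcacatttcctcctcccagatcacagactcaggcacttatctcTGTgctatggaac
Trav5-4: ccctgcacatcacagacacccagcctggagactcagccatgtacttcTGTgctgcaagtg
These ends differ between families, while copies within a family can be almost the same. The last 150 bases of the 3 Trav16 copies and of Trav3-3 with its d copy are shown because reads from such copies are hard to assign. Capitals mark the bases at which the copies of a family differ, counted with the n copy of Trav3-3 included.
Trav16: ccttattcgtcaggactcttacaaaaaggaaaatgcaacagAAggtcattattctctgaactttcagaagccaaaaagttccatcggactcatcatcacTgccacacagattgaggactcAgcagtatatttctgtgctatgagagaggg
Trav16d-dv11: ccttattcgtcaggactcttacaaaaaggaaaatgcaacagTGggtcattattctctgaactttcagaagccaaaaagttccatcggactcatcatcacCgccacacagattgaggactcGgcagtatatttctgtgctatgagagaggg
Trav16n: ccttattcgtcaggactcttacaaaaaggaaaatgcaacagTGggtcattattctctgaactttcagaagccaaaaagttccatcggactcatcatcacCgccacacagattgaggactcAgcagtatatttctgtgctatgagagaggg
Trav3-3: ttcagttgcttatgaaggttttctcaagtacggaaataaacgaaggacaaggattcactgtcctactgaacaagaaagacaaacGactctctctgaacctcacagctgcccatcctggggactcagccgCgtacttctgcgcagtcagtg
Trav3d-3: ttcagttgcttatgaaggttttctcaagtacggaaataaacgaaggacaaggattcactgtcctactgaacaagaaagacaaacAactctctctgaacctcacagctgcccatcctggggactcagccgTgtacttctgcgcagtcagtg
The Trav16 copies differ at 4 of these 150 bases and the Trav3 copies at 2.

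Library totals, recovered from the values, lay between 22220888 and 24395743 reads. Levels are RPKM, reads scaled by transcript length and library total, a scale meant for comparison between genes. Between segments that share sequence with copies that comparison is limited, because their reads may have been dropped or given to a copy. Tnfrsf4 was at 18.2 RPKM in wild-type 1, 12.3 in wild-type 2, 12.1 in the library labelled OX40-knockout 1 and 9.38 in that labelled OX40-knockout 2. Its transcript was thus still read under the knockout label, and since the deleted part is unknown this gene does not check the label. Cd4 was at 0.820, 1.97, 10.1 and 2.06 RPKM in the same order, highest in knockout 1. Cd8a, at 10.45, 10.42, 16.6 and 9.03 RPKM, and Cd8b1, at 3.37, 2.49, 4.44 and 2 RPKM, were highest there too. Of the 7 fixed αβ T cell genes all were read, with a summed level of 2149 to 2461 RPKM per library. The B cell genes Ms4a1 and Pax5 were at 0 in all 4 libraries, and so were the recombinase genes Rag1 and Rag2. The first principal component held 71% of the variance and set knockout 1 (34.2) apart from the other 3 libraries, which lay from -18.1 to -0.06.

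Of the 103 segments, 79 were above 0 in at least 1 library and 64 in all 4, and 24 were listed at 0 throughout. Members of all 21 Trav families were read. All 46 segments without a copy suffix were above 0, against 21 of 32 d copies and 12 of 25 n copies. The 24 segments at 0 sat in 2 stretches of the array when the members were counted along the locus from the end farthest from the J segments. 11 of the 12 members at places 22 to 33, all d copies, were at 0, and so were 13 of the 15 members at places 44 to 58, all n copies. In these stretches the d and n copies often have the same sequence. Trav9d-2 and Trav9n-2, Trav12d-2 and Trav12n-2, and Trav14d-2 and Trav14n-2 shared every 50-base stretch with each other, and both copies of each pair were at 0.

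Sequence that a segment holds alone was measured as the share of the 50-base windows of its longest transcript found in no other annotated gene. That share was 0% for 22 of the 24 segments at 0. It was 0.329% for Trav12n-3 and 9.30% for Trav9d-4, the other 2. Among the 79 segments above 0 the median share was 51.8%, and 11 of them had no window of their own. With windows of 36 or 100 bases the same number of segments at 0, 22, had none. The sources used here give neither the read length nor the authors' treatment of reads that match several genes. Whether these segments were silent or their reads were dropped or given to a copy cannot be told apart.

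Several identical copies had unequal values. Trav14d-1 had a mean of 4.28 RPKM over the 4 libraries, whereas Trav14n-1, which holds the same 50-base windows, was at 0. Trav12d-1 (0.515 RPKM) and Trav12n-1 (0), and Trav6d-6 (1.67 RPKM) and Trav6-6 (0.0894 RPKM), were split in the same way. Trav11d was at 1.25 RPKM and Trav11 at 0.0970. Trav3d-3 and Trav3n-3, in contrast, had the same value, 0.149 RPKM in wild-type 2 and 0 in the other libraries. Trav7-2 reached 4.18 RPKM although all its windows also lie in Trav7d-2, which was not analysed here. Reads of 50 bases from these segments could not be told apart from those of their copies.

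**Figure D1:**
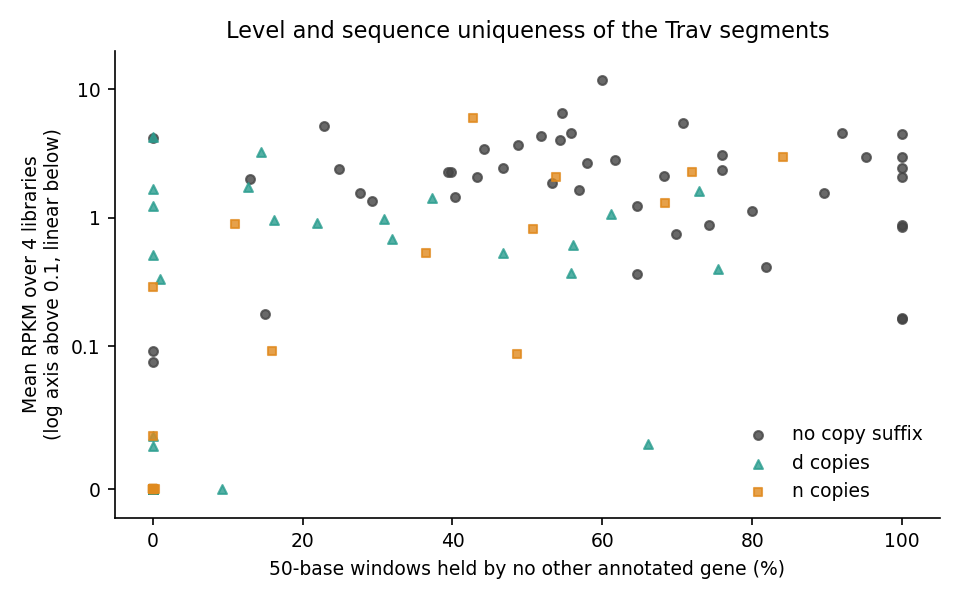
Mean RPKM over the 4 libraries (vertical axis, logarithmic above 0.1) against the share of 50-base windows that no other annotated gene holds (horizontal axis, percent), 1 point per Trav segment, marked by copy suffix. The 24 segments at 0 lie at the lower left, 22 of them at 0% and the highest at 9.30%, while 11 segments with no window of their own lie above 0.

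Usage was spread over many segments in every library, and no segment dominated. Wild-type 1 had 71 segments above 0, wild-type 2 had 74, knockout 1 had 73 and knockout 2 had 68. Trav3-3 ranked first in all 4 libraries, with 8.24%, 6.06%, 7.98% and 7.67% of the summed Trav RPKM in that order. As a share of Trav reads its exact 95% binomial (Clopper-Pearson) intervals were 6.47 to 9.27%, 4.53 to 7.12%, 6.19 to 9.06% and 5.85 to 8.96%, so these intervals overlap between all libraries. Intervals here cover counting error only, since reads are not independent molecules. The segment in second place differed. It was Trav13-1 in wild-type 1 (5.32%) and wild-type 2 (4.46%), Trav16n in knockout 1 (5.33%) and Trav13-4-dv7 in knockout 2 (7.32%).

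The 10 highest segments held 39.6% of the summed level in wild-type 1, 35.4% in wild-type 2, 40.0% in knockout 1 and 45.0% in knockout 2. The fewest segments that together held 50% numbered 16, 17, 15 and 12 in the same order. The effective number of segments, the inverse of the sum of squared shares, would equal the number of segments if all were used alike. It was 38.0 in wild-type 1, 43.0 in wild-type 2, 37.5 in knockout 1 and 32.5 in knockout 2. By segment, knockout 2 thus had the most concentrated usage and wild-type 2 the most even. With copies summed into families, knockout 2 was still the most concentrated (11.31), but wild-type 1 was the most even (13.38). The libraries held only 1477, 1311, 1368 and 1138 Trav reads. By counting error alone a segment with 0 reads may hold a share of up to 3 reads, which is 0.203% to 0.264% of them, and this covers no reads dropped or given to a copy.

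**Figure D2:**
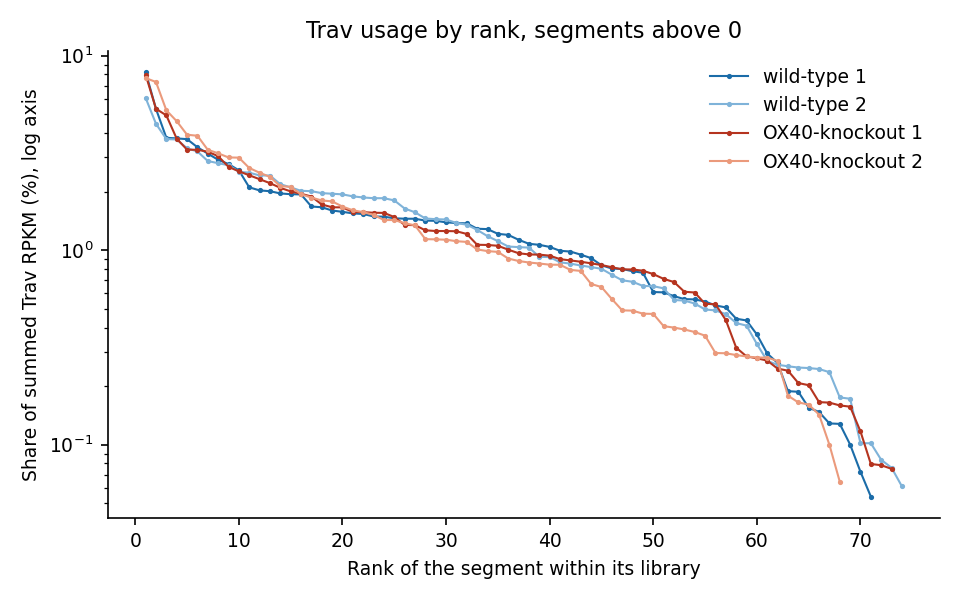
Share of the summed Trav RPKM (percent, logarithmic axis) against the rank of the segment, 1 line per library, segments above 0 only. All 4 lines fall gradually from a first segment at 6.06 to 8.24%, and knockout 2 ends first, at rank 68.

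17 segments were among the 10 highest in at least 1 library, and 3 of them, Trav3-3, Trav16n and Trav13-1, were so in all 4. Trav3-3 had levels of 14.3, 8.86, 13.4 and 10.6 RPKM in wild-type 1 and 2 and knockout 1 and 2 (115, 75, 103 and 83 reads), so the groups overlap. Trav13-1 was at 9.22, 6.52, 5.09 and 5.42 RPKM, with both knockout libraries below both wild-type ones. Trav16n was at 5.86, 4.88, 8.92 and 4.14 RPKM, and knockout 1 alone was high. Its copies differed in level and in pattern. Trav16 was at 6.45, 3.99, 4.06 and 2.95 RPKM, highest in wild-type 1. Trav16d-dv11 was at 2.07, 1.97, 1.15 and 0.502 RPKM, lower in both knockout libraries, on 17, 17, 9 and 4 reads.

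The next segments were less alike between libraries. Trav12-2 was at 6.50, 5.41, 6.26 and 3.66 RPKM, lowest in knockout 2, and Trav7-2, at 5.05, 4.09, 5.50 and 2.10 RPKM, was lowest there too. Trav5-4 was at 6.55, 4.19, 3.16 and 4.53 RPKM and was lowest in knockout 1. Trav14d-1, at 4.46, 2.83, 5.49 and 4.35 RPKM, and Trav14-2, at 3.51, 2.85, 4.49 and 5.35 RPKM, were each highest in a knockout library, and for Trav14-2 both knockout libraries lay above both wild-type ones. Among the 48 segments that averaged 1 RPKM or more, each above 0 in every library, the ratio of the highest to the lowest library had a median of 2.09. It ran from 1.36 for Trav4-3 to 9.14 for Trav11d. A further 31 segments were above 0 with a mean under 1 RPKM, the 5 pseudogenes among them, of which Trav8-2 was the highest at 0.369 RPKM.

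**Figure D3:**
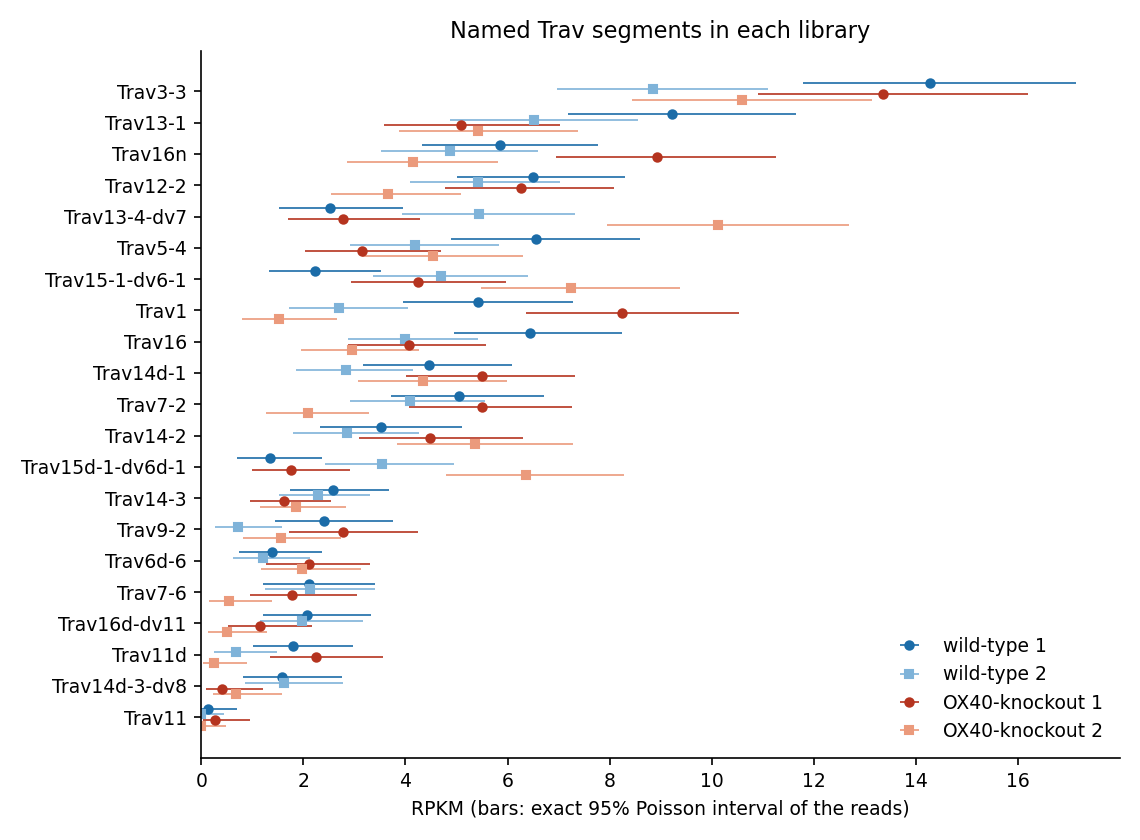
RPKM of the 21 named Trav segments (horizontal axis) in each library, with exact 95% Poisson intervals of the recovered reads as bars, ordered by mean level. Trav3-3 leads at 8.86 to 14.3 RPKM, and the knockout libraries lie far apart for Trav13-4-dv7 (2.78 and 10.1 RPKM) and Trav1 (8.25 and 1.52 RPKM).

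Summed over copies, family 13 took the largest mean share, at 12.1%, 13.2%, 11.0% and 15.2% in the same library order. Family 14 followed at 9.55 to 12.2%, family 6, the one with most members (15), at 8.89 to 9.79%, and family 3 at 8.13 to 9.76%, most of it Trav3-3. Family 7 stayed at 7.90 to 8.94% in 3 libraries and was at 5.23% in knockout 2, and family 16 likewise stayed at 7.42 to 8.44% and was at 5.49% there. Family 12 lay between 6.05 and 8.95%. Family 15 varied most of these 8, from 3.35% in wild-type 1 and 4.85% in knockout 1 to 7.52% in wild-type 2 and 12.8% in knockout 2. Family 15 consists of segments with delta names and 1 n copy.

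Along the array, usage leaned towards the end near the J segments. The 34 members nearest that end, all of them above 0, held 60.7% of the summed level in wild-type 1, 62.8% in wild-type 2, 55.9% in knockout 1 and 65.1% in knockout 2. The middle 34 held 17.3 to 22.5% and the 35 farthest members 17.4 to 21.7%. Segments without a copy suffix, which make up all of the near end, held 72.2 to 75.5% of the level in each library, d copies 13.1 to 15.1% and n copies 9.84 to 12.7%. The middle and far groups hold the copies at 0, so their shares carry the same limit as those copies. The lean was present in every library, and the difference between genotypes in the share of the near end was within the spread, since the wild-type libraries lay between the 2 knockout libraries.

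**Figure D4:**
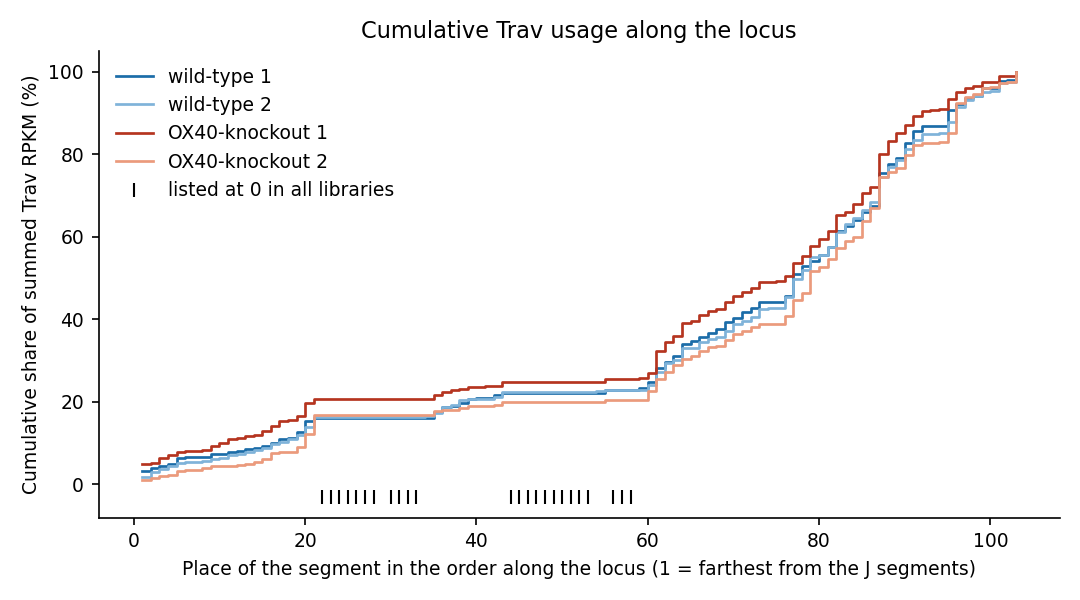
Cumulative share of the summed Trav RPKM (percent) against the place of the segment in the array, counted from the end farthest from the J segments, 1 line per library. Each line is nearly flat over the 2 stretches of copies at 0 (ticks) and climbs most over the last places, the last 34 places holding 55.9 to 65.1%.

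The summed Trav level did not separate the genotypes. It was 173.3 RPKM in wild-type 1 and 146.1 in wild-type 2, against 167.4 in knockout 1 and 138.3 in knockout 2, or 159.7 ± 19.2 (SD, n = 2) and 152.9 ± 20.6 (SD, n = 2). The exact two-sided permutation test gave p = 0.667, and with 2 libraries against 2 it cannot go below 0.333. Against the constant segment, the summed level was 69.2%, 71.8%, 60.0% and 86.9% of Trac in the same library order. Against the summed CD3 genes Cd3d, Cd3e and Cd3g, the signalling chains of the receptor, it was steadier, at 12.9%, 13.6%, 13.2% and 13.7%. In bulk RNA fewer cells of a kind and less RNA per cell cannot be told apart.

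Evenness and dominance likewise gave no call. The effective number was 40.5 ± 3.54 (SD, n = 2) in wild-type and 35.0 ± 3.54 (SD, n = 2) in knockout libraries, and the share of the 10 highest segments was 37.5 ± 2.93% and 42.5 ± 3.54%. For both quantities the groups did not overlap by segment, but only just, and the exact permutation p was 0.333, the smallest possible. The lower wild-type library had an effective number of 38.0, the higher knockout library 37.5. With copies summed into families the effective numbers of the groups overlapped, since knockout 1 (13.15) lay above wild-type 2 (13.11). The share of the highest segment, Trav3-3, was 7.15 ± 1.54% (SD, n = 2) and 7.82 ± 0.221% (SD, n = 2), with an exact permutation p of 1. Usage differed between any 2 libraries by more than the counting noise of independent reads, and reads copied from 1 molecule would raise this measure too. A share of 17.2 to 25.4 percentage points of the summed level would have to move between segments to turn 1 library into another, and the chi-square per degree of freedom was 2.01 to 4.22. The pair least alike was the 2 knockout libraries (25.4 points, 4.22), and the pair most alike was wild-type 1 and knockout 1 (17.2 points, 2.01). The 2 wild-type libraries lay between these (18.4 points, 2.29), so libraries did not pair off by genotype. Spearman's rho across segments, a description in which segments share library and annotation, ranged from 0.80 to 0.86.

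No segment passed the test for genotype. limma on log2(RPKM + 1), adjusted over the 11625 genes that averaged 1 RPKM or more, called 0% of the genes and none of the 48 segments in it. At an unadjusted p under 0.05 it had 162 genes (1.39%) and 3 segments (6.25%), and limma-voom on recovered reads called 0 genes and had 129 genes and 1 segment at that level. The 3 segments were Trav14d-3-dv8 (log2 difference, knockout minus wild-type, -0.76, SE 0.21), Trav16d-dv11 (-0.75, SE 0.25) and Trav14-2 (0.50, SE 0.18), all with an adjusted limma p of 0.975. Trav14d-3-dv8 was at 1.58, 1.62, 0.412 and 0.675 RPKM in the library order used above, on 12, 13, 3 and 5 reads. Such low counts set wide limits, as the exact 95% Poisson intervals of 0.814 to 2.75 RPKM in wild-type 1 and 0.219 to 1.58 RPKM in knockout 2 overlap.

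Both knockout libraries lay above both wild-type ones for 2 of the 48 segments (4.17%), Trav14-2 and Trav6d-6, against 8.66% of all genes tested. They lay below for 7 (14.6%), against 17.8% of all genes, so neither share exceeded that of genes in general. The 7 were Trav13-1, Trav14-1, Trav14-3, Trav14d-3-dv8, Trav16d-dv11, Trav7-6 and Trav19. Trav6d-6 was at 1.39, 1.22, 2.12 and 1.97 RPKM (log2 difference 0.40, SE 0.18), and Trav7-6 at 2.10, 2.12, 1.78 and 0.540 RPKM (-0.59, SE 0.33). Trav15-1-dv6-1 (0.62, SE 0.37), Trav14d-1 (0.37, SE 0.24) and Trav9-2 (0.36, SE 0.41) had positive differences with groups that overlap, Trav9-2 being at 2.41, 0.723, 2.78 and 1.56 RPKM. Trav14-3 differed by -0.33 (SE 0.18) and Trav13-1 by -0.49 (SE 0.20), both on the log2(RPKM + 1) scale. Differences were positive for 16 segments and negative for 32, with a median of -0.09 against -0.03 over all genes tested. Trav2, with a mean of 0.881 RPKM, was outside the fit and is named here after its values were seen. Its levels were 1.33, 1.51, 0.277 and 0.409 RPKM, lower in both knockout libraries, on 10, 12, 2 and 3 reads.

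Libraries of 1 genotype differed widely in several segments that also carry a delta name, a grouping made after values were seen and given without a test. The 9 such segments, all with a mean of at least 1 RPKM, held 13.1% of the summed level in wild-type 1 and 12.6% in knockout 1, but 19.9% in wild-type 2 and 26.9% in knockout 2 (189, 169, 252 and 298 reads). In each genotype the library numbered 2 was thus the higher, and the knockout minus wild-type difference of 3.28 percentage points was smaller than the gap within either genotype. 4 of the 9 were highest in knockout 2. Their 3′ ends, other than that of Trav13-4-dv7 printed above, are shown because the 3 are of family 15, with capitals again marking the conserved cysteine codon.
Trav15-1-dv6-1: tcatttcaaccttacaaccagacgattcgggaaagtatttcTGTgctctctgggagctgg
Trav15d-1-dv6d-1: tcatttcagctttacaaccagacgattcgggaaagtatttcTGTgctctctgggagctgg
Trav15-2-dv6-2: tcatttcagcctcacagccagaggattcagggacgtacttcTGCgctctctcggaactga
Trav13-4-dv7 had levels of 2.53, 5.44, 2.78 and 10.1 RPKM, on 19, 43, 20 and 74 reads. Trav15d-1-dv6d-1 was at 1.35, 3.53, 1.76 and 6.36 RPKM. Trav15-1-dv6-1 was at 2.22, 4.70, 4.26 and 7.24 RPKM, and Trav15-2-dv6-2 at 2.23, 2.76, 2.10 and 4.13 RPKM. All 4 were lower in the library numbered 1 than in the library numbered 2 of the same genotype. Some segments without a delta name were so too, such as Trav12-1 (2.38, 3.69, 2.09 and 2.58 RPKM) and Trav12-3 (1.96, 2.70, 1.43 and 2.32 RPKM). Others, such as Trav12-2, were not.

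None of the other 5 delta-named segments was highest in knockout 2, and only Trav21-dv12 and Trav14d-3-dv8 among them were lower in the library numbered 1 of both genotypes. Trav6-7-dv9 was highest in wild-type 1 (4.80 RPKM) and Trav4-4-dv10 in knockout 1 (3.50 RPKM). Trav21-dv12, the segment nearest the J segments, was at 3.36, 3.65, 1.50 and 3.46 RPKM, low in knockout 1 only. Trav16d-dv11 and Trav14d-3-dv8 had lower values in both knockout libraries, as given above. V segments of the delta chain proper were high in the same libraries as the first 4. Trdv4 was at 3.37, 15.0, 2.09 and 19.5 RPKM and Trdv5 at 4.37, 13.4, 5.22 and 18.4 RPKM, high in both libraries numbered 2. Trdv1, at 2.18, 4.81, 1.32 and 4.135 RPKM, and Trdv2-2, at 2.37, 3.92, 2.09 and 7.19 RPKM, were also higher there. Trdv2-1 was at 0 to 0.257 RPKM. The delta J segments Trdj1 (42.2, 143.1, 52.1 and 194.6 RPKM) and Trdj2 (10.2, 25.7, 13.0 and 42.05 RPKM) were higher in both libraries numbered 2 as well.

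Some marker lists of other cells had the same library order in each genotype, and others did not. Of the 7 fixed γδ T cell genes 3 were measured, with a summed level of 4.66, 17.6, 4.68 and 20.8 RPKM, most of it Trdv4 in the libraries numbered 2. The other 2 measured did not follow Trdv4, with Blk at 1.11, 1.59, 1.86 and 0.609 RPKM and Sox13 at 0.171, 1.02, 0.735 and 0.658 RPKM. Trdc, Trgc1, Trgc2 and Trgc4 were not analysed here. All 5 NK cell genes were above 0, with a summed level of 231.3, 363.2, 128.7 and 339.0 RPKM. Among them Ncr1, an activating NK receptor, was at 0.408, 7.93, 0.183 and 7.49 RPKM. Ncr1 thus separated the same libraries as Trdv4, although the sort was against NK markers and for TCRαβ. The 7 myeloid and dendritic genes summed to 3.80, 7.78, 2.51 and 6.01 RPKM, also higher in the libraries numbered 2, with Siglech at 0 in all. The 5 B cell genes summed to 3.004, 2.54, 4.81 and 2.83 RPKM and did not have that order. The part of other cells in the delta-named share was not tested.

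**Figure D5:**
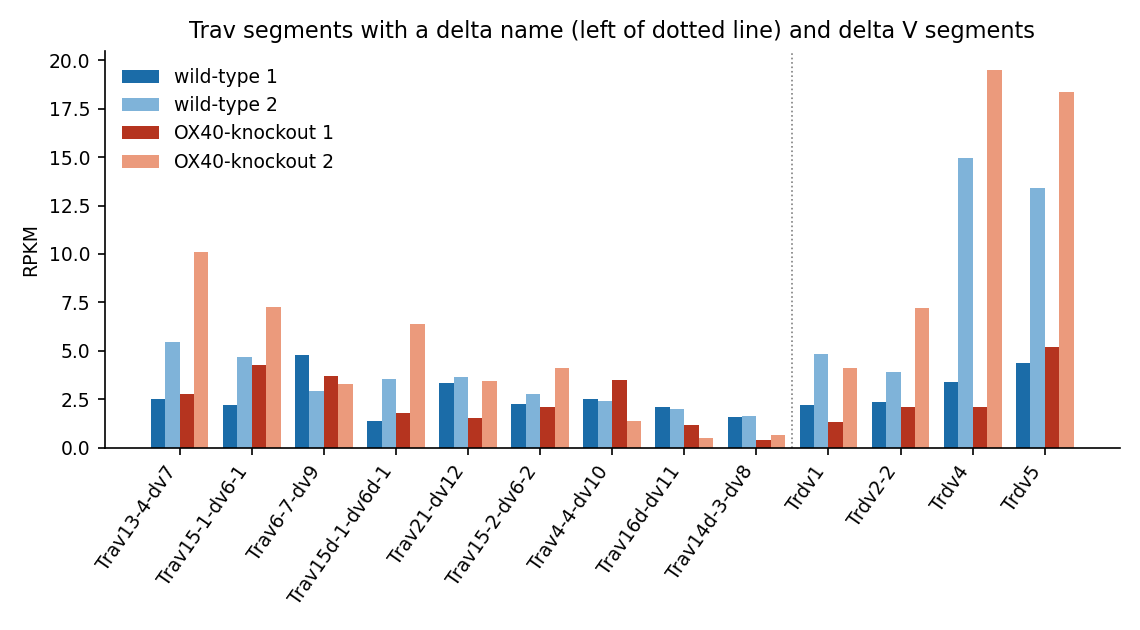
RPKM in each library (bars, from 0) of the 9 Trav segments with a delta name, left of the dotted line, and of 4 V segments of the delta chain, right of it. Trav13-4-dv7, the 3 segments of family 15, Trdv2-2, Trdv4 and Trdv5 are highest in knockout 2 (10.1 RPKM for Trav13-4-dv7). None of the other 5 delta-named segments is, and Trdv1 is highest in wild-type 2 (4.81 RPKM).

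Of the segments of innate-like T cells, Trav1 was among the 12 highest by mean level (4.48 RPKM). The Trav11 copies were lower, Trav11d at 1.25 and Trav11 at 0.0970 RPKM. Trav1 and Trav11d differed widely between the 2 knockout libraries. Their 3′ ends are printed to show the end of the V segment that meets the J segment in fixed alpha chains, with the cysteine codon in capitals.
Trav1: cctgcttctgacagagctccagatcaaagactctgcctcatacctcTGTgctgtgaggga
Trav11d: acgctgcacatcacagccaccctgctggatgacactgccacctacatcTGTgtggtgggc
Trav1 was at 5.43, 2.70, 8.25 and 1.52 RPKM (44, 23, 64 and 12 reads), so the knockout libraries lay on either side of the wild-type ones. Its share of the summed level was 3.13%, 1.85%, 4.93% and 1.10%, and the limma difference was -0.01 (SE 0.68). Trav11d was at 1.80, 0.685, 2.26 and 0.247 RPKM on 15, 6, 18 and 2 reads, which is the same library order as Trav1. That order was not particular to these segments. Trac (250.4, 203.4, 279.2 and 159.1 RPKM) and Trav7-2 (5.05, 4.09, 5.50 and 2.10 RPKM) had it too, while others, such as Trav3-3, did not. Trav11 had 1 read in wild-type 1, 2 in knockout 1 and 0 in the other libraries. For 0 reads the limit of 3 reads is 0.229% in wild-type 2 and 0.264% in knockout 2, for counting error only. Trav11 shares 99.7% of its 50-base windows with Trav11d, so this does not limit the usage of Trav11 itself.

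The J segments that complete these chains were also read. Traj18 was at 9.14, 9.32, 13.0 and 6.04 RPKM, highest in knockout 1 and lowest in knockout 2. Unlike Trav1, it was nearly equal in the wild-type libraries. Traj33 was at 2.27, 5.03, 2.37 and 2.33 RPKM, high in wild-type 2 only and so not in the order of Trav1. Zbtb16, the transcription factor that directs innate-like T cells, was at 2.64, 1.63, 10.9 and 1.78 RPKM, highest in knockout 1 but lowest in wild-type 2. The whole list of 5 innate-like genes summed to 116.7, 112.5, 145.9 and 93.6 RPKM, its largest member being Cxcr6, a chemokine receptor that activated T cells also carry. Il18r1, the next largest, was at 35.2, 44.7, 26.8 and 33.7 RPKM, lowest in knockout 1 and so not in the order of Trav1. The part of innate-like T cells in the levels of Trav1 and Trav11d was not tested. V and J reads here are not linked within a transcript.

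Genes that assemble or rearrange the receptor gave no genotype call either. Of 20 in the list 16 were in the fit, and limma called none of them, with 7 higher and 9 lower in knockout and a median log2 difference of -0.08. Trac was at 250.4, 203.4, 279.2 and 159.1 RPKM in the library order used above, and the beta chain constant segments Trbc1 and Trbc2 lay between 208.4 and 341.1 and between 481.8 and 646.3 RPKM. Dntt, which adds bases at V to J junctions, was at 0.129 to 0.449 RPKM, and Ptcra, the partner of the beta chain before alpha joins, was at 0 to 0.0691 RPKM.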

How the data were processed

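RNA of 2 wild-type and 2 OX40-knockout DNT libraries was sequenced on an Illumina HiSeq after TruSeq preparation, per the labels. The authors deposited 1 table of RPKM values. Its header names no unit, which was settled from the values. Bowtie 0.12.2 and mm8 are named in the submitters' processing notes. The sources used here do not give the annotation, counting tool, read length, strand use or treatment of reads with several matches. Symbols and sequences came from GENCODE vM21 (GRCm38), which names 34490 of the 35275 IDs. As the builds differ no coordinates are printed.

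Whole reads were recovered in 20994 of the 20996 genes above 0 as RPKM times length times library total, within a tolerance of 1e-06 read. Library totals came from single-transcript genes at 1 read. For a segment the smallest fitting length of at least 250 bases was used, so its reads may be too few by a whole factor. Shares were taken of summed Trav RPKM. limma 3.58.1 in R 4.3.3 (empirical Bayes with trend) tested log2(RPKM + 1) for genes averaging 1 RPKM or more, with Benjamini-Hochberg adjustment and a threshold of 0.05. This scale understates changes of low genes. Per-library quantities were compared by exact permutation. Chi-square used segments with at least 10 reads over a pair. Named segments were the 12 highest, the 5 highest per library, the 5 of lowest p in each direction, Trav1 and the Trav11 copies. Of the fixed marker lists, the 4 immature thymocyte genes summed to 0.129 to 0.481 RPKM per library. Members and lists were chosen with earlier results of these data known. Alternatives were other pseudocounts, filters, scalings, fits and left-out libraries. The fit was tested on simulated data with larger changes than any segment in the fit had, which does not measure its power for the segments. Python 3.11.15 with numpy 2.4.6, pandas 2.3.3, scipy 1.17.1 and matplotlib 3.10.9 was used.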

Additional observations from a re-analysis of the deposited data

How the results depend on the processing

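No Trav segment was called in any alternative fit. Over all genes limma called 0, with 1 under quantile normalization, 5 with the replicate block, and 0 to 109 when 1 library was left out (109 without knockout 2 and 1 without wild-type 2, the lone library being assumed to vary like the other group). Library numbers are shared between genotypes, but the labels do not say that they pair libraries. Deviations of same-numbered libraries correlated at 0.469 over all genes tested and 0.417 over the 48 segments. Within number 1 and number 2 (replicate block), the knockout minus wild-type difference in log2 effective number was -0.019 and -0.40 against -0.21 pooled (leave-one-out -0.31 to -0.11), that of the summed level was -0.05 and -0.08 against -0.06 (-0.20 to 0.07), and that of the highest share was -0.05 and 0.34 against 0.15 (-0.08 to 0.37). Relative to Trac and to CD3 genes the summed level difference was 0.03 and 0.02. The delta-named share, with alternatives chosen after seeing the data, differed by -3.83 to 10.4 points when 1 library was left out.

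Signs of several log2 differences rested on 1 library. Leaving out each in turn gave -0.24 to 0.39 for Trav3-3, -0.30 to 0.64 for Trav16n, -0.57 to 0.066 for Trav12-2, -0.34 to 1.22 for Trav13-4-dv7, -0.95 to 0.92 for Trav1, -0.84 to 0.23 for Trav7-2, -0.24 to 1.17 for Trav15d-1-dv6d-1, -0.13 to 0.85 for Trav9-2 and -0.47 to 0.58 for Trav11d, which was not tested without knockout 1 because its mean was then under 1 RPKM (likewise Trav14d-3-dv8 without either wild-type library). Trav1 also turned to 0.053 with a pseudocount of 5 and to 0.0077 with quantile normalization. The cause was not tested. The other 11 named segments in the fit kept their sign in every alternative run. Relative to the summed Trav level, 3 of the 48 segments lay higher and 9 lower in both knockout libraries. The share over all genes was not taken on that scale, so these counts give no result about the segments. The 1138 to 1477 Trav reads per library limit every share.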
